A study of Mus musculus with 23 samples.

Results

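Mouse chromosome 4 carried 335 of the 3885 differentially methylated regions that the study's table lists for liver, the most of any of the 19 autosomes. All rows of that table on chromosome 4 were taken. The chromosome was then divided at 120 Mb into a distal segment of 212 regions and a remainder of 123 regions. Each region is 100 bp long and its position is in the mm9 build. A region is in the table because at least 1 of 4 group differences passed the authors' limits of 15 percentage points and a q-value of 0.05. The members were thus chosen by those differences, and counts and sizes below are descriptions with no test. The split at 120 Mb was likewise made with the values known. Being listed is the authors' call, and a value of 0 means that the region was not listed for that comparison, not that methylation was equal.

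The DNA came from livers of 23 individual mice aged 8 to 12 weeks, and was cut with MspI (which recognises CCGG), taken as fragments of 40 to 220 bp, bisulfite-treated and sequenced (reduced representation bisulfite sequencing, RRBS). Control mice carried a floxed Stat5a-Stat5b locus on a mixed C57BL/6 x 129J background (6 males and 5 females). Knockout mice (STAT5ab-KO, KO below; 6 males and 6 females) carried the same floxed locus plus Cre under the albumin promoter, a transgene brought in from an FVB/N line, so that STAT5a and STAT5b were removed from hepatocytes and kept in the other cells of the liver. The table writes the controls as WT. It compares control males with control females, KO males with KO females, KO males with control males, and KO females with control females. It holds no value per animal, so no spread between animals can be put beside a difference, and the read depth behind each is unknown. A change in the mix of cells and a change of methylation within cells cannot be told apart in whole liver DNA. The titles carry 5 codes of unstated meaning. A single code is shared by control females and KO males, and none by KO and control mice of the same sex. Control males and control females share 1 code, and KO males and KO females share 1. Most KO females carry a code that no KO male has, so the code goes with sex as well as with genotype. Strain makeup per animal was not analysed here.

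STAT5a and STAT5b are transcription factors that growth hormone activates in the liver. Male rodents release growth hormone in separated pulses and females more continuously, and this difference in pattern drives much of the difference in liver gene expression between the sexes. Chromosome 4 holds the genes of the major urinary proteins (Mup), small carrier proteins that mouse liver secretes, that are excreted in urine and bind pheromones, and whose expression in mouse liver depends on growth hormone and is higher in males. Methylation of cytosine in CpG dinucleotides near promoters and enhancers commonly goes with low activity of those elements. RRBS reads mainly CpG-rich DNA, because it starts from CCGG sites.

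No region was listed between 59 and 62 Mb, the window set around the Mup genes. The positions of these genes in mm9 were not checked, so whether the window covers the whole cluster, and whether the region listed next after it lies near a Mup gene, is unknown. The nearest region before that window, 58366901 to 58367001, was higher in control males than in control females by 17.66 points and higher in KO females than in control females by 20.08 points in the authors' deposited table. The nearest region after it, 62171401 to 62171501, was listed between the sexes in controls alone, at -16.2 points in the authors' deposited table. Together they bound a stretch of 3.80 Mb with no listed region. Chromosome 4 had 7 longer empty stretches, the longest of 7.82 Mb between 73931601 and 81749301, and 9 of the 51 windows of 3 Mb along the chromosome were empty. Differences under the listing thresholds were not analysed here, and the coverage of the Mup genes is unknown, so the empty window does not show that their methylation was the same in the 4 groups.

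The RefSeq promoter windows of the Mup genes (GRCm38.p6, 250 bases before to 50 after the start of the gene) held few CpG sites and no MspI site, which bears on what RRBS can read there. Of the 22 Mup genes that RefSeq places on chromosome 4, 14 were matched to a promoter window, with 1 to 4 CpG each and a median of 3. These windows do not all cover the same part of the sequence they share. The stretch around the 1 CpG of Mup7 lies at the end of its window, but further inside those of Mup2 and Mup3. The CpG counts therefore partly follow where each window was placed. The letters CCGG occurred in 0 of the 14, against 58.0% of the 2053 chromosome 4 windows and 52.8% of all 32851 windows in the table. The letters TTCNNNGAA, a consensus for STAT5 binding that reads the same on both strands, also occurred in 0 of the 14. They occurred in 6.92% of the chromosome 4 windows and in 8.30% of all windows. At such rates few matches would fall in 14 windows. MspI's CCGG too reads the same on both strands. The 14 windows are largely alike in sequence, so for either motif they are not 14 separate observations. A missing match concerns these windows only. In this reference, a fragment cut at CCGG on either side of such a window of 300 bases would be longer than the 220 bp kept. The reads there were not analysed. The windows of Mup2, one of several with 4 CpG, of Mup7, with the fewest, and of Mup3 are shown because they hold the CpG sites of these promoters, each in capitals. They are printed 5′ to 3′ on the minus strand of GRCm38.p6 (Mup2, chr4:60139807-60140106; Mup7, chr4:60070426-60070725; Mup3, chr4:62087268-62087567).
Mup2: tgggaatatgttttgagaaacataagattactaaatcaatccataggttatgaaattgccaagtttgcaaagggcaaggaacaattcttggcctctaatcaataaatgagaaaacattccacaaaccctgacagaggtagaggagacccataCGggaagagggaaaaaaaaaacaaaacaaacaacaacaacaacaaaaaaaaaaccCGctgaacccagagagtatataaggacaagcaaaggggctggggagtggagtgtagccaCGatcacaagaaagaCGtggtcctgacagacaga
Mup7: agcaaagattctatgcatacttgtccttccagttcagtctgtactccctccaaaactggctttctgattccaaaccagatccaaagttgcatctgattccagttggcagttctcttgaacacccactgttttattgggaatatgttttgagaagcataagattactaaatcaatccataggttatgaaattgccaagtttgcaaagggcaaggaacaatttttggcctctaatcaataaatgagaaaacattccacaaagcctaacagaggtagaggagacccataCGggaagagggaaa
Mup3: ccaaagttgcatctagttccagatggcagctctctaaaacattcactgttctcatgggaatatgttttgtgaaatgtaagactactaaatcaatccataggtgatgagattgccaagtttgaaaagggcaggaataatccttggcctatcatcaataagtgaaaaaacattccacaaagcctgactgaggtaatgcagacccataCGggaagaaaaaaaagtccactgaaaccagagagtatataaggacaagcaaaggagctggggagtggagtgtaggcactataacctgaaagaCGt

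Sequences of the listed regions themselves are not shown, and genes are not assigned to them, because a genome or annotation of mm9 was not used here.

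Between 57 and 64 Mb, around the Mup window, 13 regions were listed. Gains were listed at 7 of them for KO males and at 4 for KO females, 3 regions were in both lists, and no KO loss was listed. Of all listed regions, 37.8% were called gains in KO males and 17.1% in KO females. The 13 are too few for a comparison with these shares. Within 400 bases, 62917801 to 62917901, 62918001 to 62918101 and 62918101 to 62918201 gained 20.49, 15.67 and 35.18 points in KO males relative to control males in the authors' deposited table. The first and the last of these were also higher in KO females than in control females, by 22.92 and 18.79 points in the authors' deposited table. A short way before them, 62882601 to 62882701 and 62882801 to 62882901 differed between KO males and KO females by -24.95 and -19.21 points in the authors' deposited table, with no other comparison listed. On the near side, the touching regions 57077601 to 57077701 and 57077701 to 57077801 gained 17.51 and 16.09 points in KO males in the authors' deposited table, and the first gained 21.93 points in KO females. The other gains were listed in a single sex, at 57292101 to 57292201 (15.83 points) and 57959901 to 57960001 (16.95) in males, and at the region nearest to the window in females.

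**Figure D1:**
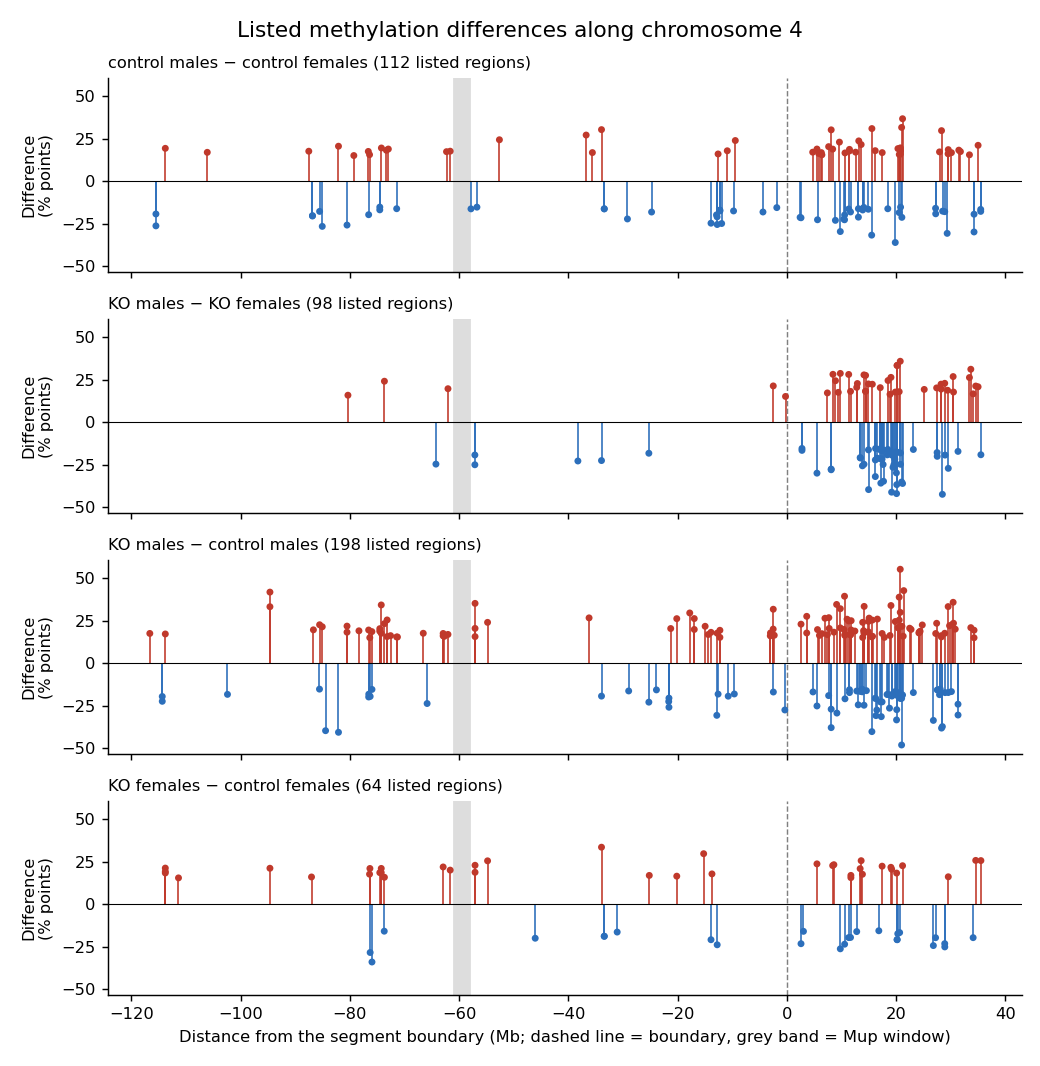
Each stem is a listed region of chromosome 4, placed by its distance in Mb from the segment boundary (dashed line), with its difference in percentage points on the vertical axis, higher in the first-named group in red and lower in blue, for each of the 4 comparisons. The grey band marks the Mup window, which is empty, and the KO sex comparison has 87 of its 98 regions to the right of the boundary.

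The comparison of KO males with KO females gave the most uneven picture along the chromosome. On chromosome 4 a difference between KO males and KO females was listed at 98 regions, which is 29.3% of its members (18% of all listed regions were called in this comparison). Males were higher at 42 and lower at 56. Of all 3885 listed regions, 9.06% were called higher in KO males than in KO females and 8.93% lower. Of the 98 on chromosome 4, 87 lay in the distal segment (88.8%), although that segment held 63.3% of the chromosome's listed regions. In the distal segment 41.0% of members were listed for this comparison, in the remainder 8.94%, and on the other chromosomes 16.9%. Per Mb, the distal segment held 2.45 regions with a KO sex difference. The last 35.5 Mb of the other 18 autosomes, the same length counted back from each one's last listed region, held 0.0844 to 0.844 per Mb.

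Sex differences in control liver were less concentrated. Control males and control females differed at 112 regions of chromosome 4, 33.4% of its members. Over all listed regions the share called in this comparison was 38.4%, with 18.2% higher in control males and 20.3% lower. On chromosome 4 males were higher at 54 and lower at 58, and 66 of the 112 lay in the distal segment (58.9%). The distal density was 1.86 regions per Mb, against 0.225 to 2.08 over the same length of the other autosomes, so at least 1 other chromosome was denser. The distal segment therefore had 1.32 KO sex differences for each control sex difference, while the remainder of chromosome 4 had 0.239 and the other chromosomes together 0.435. Among the last 35.5 Mb of the other autosomes this ratio ranged from 0.2 to 1. Over whole chromosomes, chromosome 4 had a ratio of 0.875, the second highest of the 19, with 0.963 the highest. How many regions the authors tested in each segment is unknown, and list lengths also depend on group sizes, which were 6 and 6 animals in KO mice and 6 and 5 in controls.

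In the distal segment the KO sex differences clustered between 130 and 150 Mb. Counted in bins of 5 Mb, the bins from 135 to 140 Mb (29 regions), 130 to 135 Mb (15), 140 to 145 Mb (13) and 145 to 150 Mb (11) were the 4 fullest of the 476 bins of the table that held a listed region. The fullest bin on any other chromosome held 10. These 4 bins also held many listed regions of any comparison (48, 47, 37 and 24, which ranked 1, 2, 5 and 19 of the 476). For KO males against control males they ranked 6, 1, 3 and 22. In control liver the same 4 bins held 6, 17, 11 and 9 sex differences in that order, and the fullest bin of another chromosome held 25. Among the 50 bins with at least 10 listed sex differences of either genotype, the bin from 135 to 140 Mb had the highest share from KO mice, at 82.9%, followed by a bin on chromosome 7, 30 to 35 Mb, at 81.8%.

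**Figure D2:**
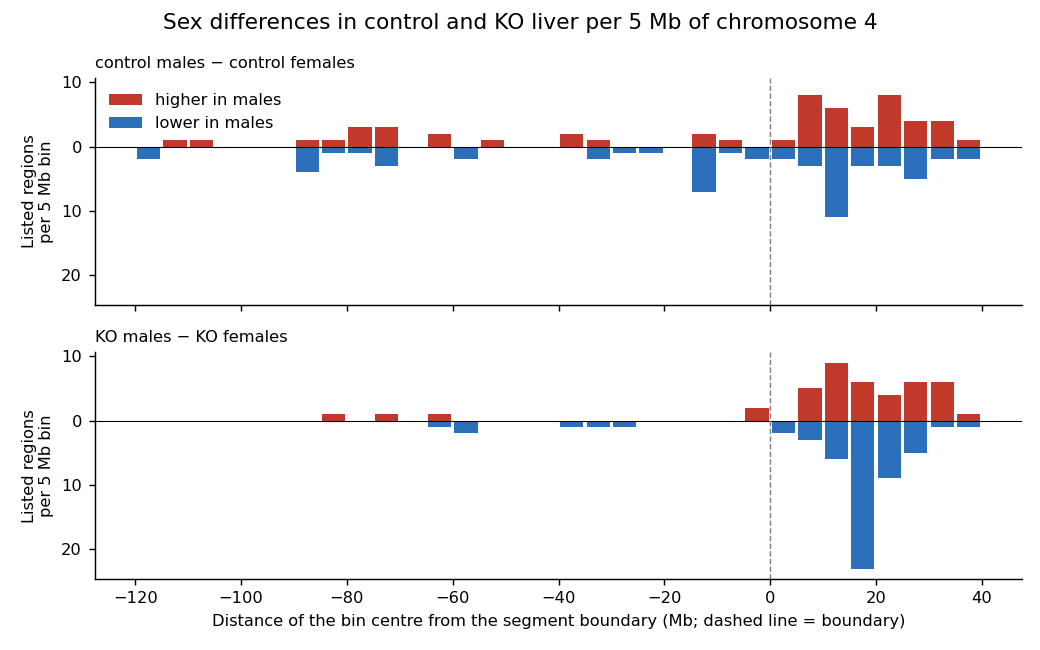
Bars give the number of listed regions per 5 Mb bin of chromosome 4, above the line for higher methylation in males (red) and below it for lower (blue), in control liver (top) and KO liver (bottom), by the distance of the bin from the segment boundary in Mb. In KO liver the bin from 135 to 140 Mb holds 23 regions lower and 6 higher in males, and in control liver 3 of each.

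Within 135 to 140 Mb, methylation was mostly lower in KO males than in KO females. Of the 29 regions, 23 were lower in KO males, with differences from -15.27 to -41.04 points and a median of -21.1 points, and 6 were higher, by 16.41 to 26.37 points. Of the 29, 18 were listed in no other comparison, against 270 of 699 in the whole table. Among the 23, 15 had no listed difference between KO males and control males and no control sex difference. A single one of the 29 was listed between control males and control females. The share also listed there was 15.3% of the 98 KO sex differences on chromosome 4, and 26.2% of the 699 in the whole table. Along this stretch 11 KO sex differences in a row were lower in males, from 137147001 to 138494601. The table had 5 rows of that length or longer in this comparison, in either direction, counting this one. Within that span 2 control sex differences were listed. The largest of the 11 in the authors' deposited table were -35.74 points at 137219801 to 137219901, -34.65 at 137714701 to 137714801 and -24.79 at 137640201 to 137640301. A further 7 in a row, from 139139301 to 139775801, were lower by 17.63 to 41.04 points, and no control sex difference was listed within that span. The table had 18 rows at least as long as this one. In the opposite direction, 8 in a row from 128450101 to 132926501 were higher in KO males, by 17.57 to 28.69 points, with 12 control sex differences in that span. Rows of 8 or more numbered 14 in the table. Without the bin from 135 to 140 Mb, an alternative chosen after seeing the data, the share of distal KO sex differences that were higher in males went from 42.5% to 53.4%, so the excess of lower values in KO males rested on that bin.

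The largest KO sex differences on chromosome 4 were all distal. KO males were lowest relative to KO females at 148490601 to 148490701 (-42.3 points), 140100301 to 140100401 (-41.88), 139197101 to 139197201 (-41.04), 134976801 to 134976901 (-39.52) and 140136401 to 140136501 (-36.61) in the authors' deposited table. The difference between KO males and control males, which is drawn from the same KO males, was -37.18, -33.25, -18.38 and -27.23 points at these regions in that order, the one of -39.52 points left out because it was not listed there, per the authors' deposited table. They were highest relative to KO females at 140775701 to 140775801 (35.83 points), at the touching pair 140203101 to 140203201 and 140203201 to 140203301 (33.37 each), at 153697401 to 153697501 (31.14) and at 129799801 to 129799901 (28.69) in the authors' deposited table. The touching pair had the same 4 values in both regions, and KO females there were 20.77 points lower than control females by the authors' deposited table. The largest size in the remainder of the chromosome was that of -24.95 points near the Mup window, so none of its 11 KO sex differences reached 25 points. Of the 87 distal ones 29 did (33.3%), and on the other chromosomes 101 of 601 did (16.8%). With a list of 11, finding none is no clear departure from that last share. The smallest KO sex differences listed on the chromosome were 15.17 points at 119768001 to 119768101 and 15.27 points at 137240901 to 137241001 in the authors' deposited table.

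Between control males and control females the largest differences were again mostly distal. Control males were higher by 36.72 points at 141198601 to 141198701, 31.6 at 141029401 to 141029501, 30.94 at 135583901 to 135584001, 30.32 at 86072401 to 86072501 and 30.19 at 128129801 to 128129901 in the authors' deposited table. They were lower at 139862501 to 139862601 (-35.96 points), 135543901 to 135544001 (-31.64), 149367301 to 149367401 (-30.59), 154287001 to 154287101 (-29.77) and 129799801 to 129799901 (-29.52) in the authors' deposited table. The median size of the control sex differences on chromosome 4 was 18.1 points, against 19.8 points on the other chromosomes. For the KO sex differences the order was the reverse, with 21.4 points on chromosome 4 and 19.4 on the other chromosomes.

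In KO males compared with control males, gains of methylation outnumbered losses, and the percentage of gains was lower on chromosome 4 than on each of the other 18 autosomes. KO males were listed against control males at 198 regions of chromosome 4, or 59.1% of its members. Over all listed regions the share called in this comparison was 55.4%, with 37.8% gains and 17.7% losses. On chromosome 4 KO males gained methylation at 120 and lost it at 78. Gains made up 60.6% on chromosome 4, 56.8% in its distal segment, 67.1% in the remainder and 68.9% on the other chromosomes. The next lowest were close, with 61.2% on chromosome 11, 61.4% on chromosome 14 and 62.1% on chromosome 15. Without the bin from 135 to 140 Mb, chromosome 4 stood at 63.2%, above all of these. The largest gains were 55.22 points at 140775701 to 140775801, 42.67 at 141417701 to 141417801, 41.8 at 25359101 to 25359201, 39.37 at 130571901 to 130572001 and 38.84 at 140581101 to 140581201 in the authors' deposited table. The largest losses were -47.97 points at 141022001 to 141022101, -40.52 at 37909901 to 37910001, -40.12 at 135583901 to 135584001, -39.57 at 35545501 to 35545601 and -38.05 at 148335401 to 148335501 in the authors' deposited table. The largest gain and the largest loss both lay in the distal segment. In the remainder, 11 consecutive listed changes from 45471001 to 53433901 were gains, of 15.43 to 34.26 points. Rows of one direction at least that long numbered 29 in this comparison over the whole table.

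KO females differed from control females at fewer regions of chromosome 4. The female comparison listed 64 regions (19.1% of the members, against 28.1% of all listed regions), of which 38 were gains and 26 losses. Over all listed regions 17.1% were called gains in KO females and 11% losses. Gains made up 71.0% of the 31 regions in the remainder and 48.5% of the 33 distal ones, and 61.0% on the other chromosomes. The largest gains were 33.53 points at 86072401 to 86072501, 29.72 at 104777801 to 104777901, 25.78 at 154594501 to 154594601, 25.67 at 155543201 to 155543301 and 25.62 at 133616601 to 133616701 in the authors' deposited table. Losses were largest at 44042901 to 44043001 (-33.88 points), 43711101 to 43711201 (-28.3), 129799801 to 129799901 (-26.14), 148930701 to 148930801 (-25.02) and 146838201 to 146838301 (-24.23) in the authors' deposited table. Between 6199601 and 43666501 all 8 listed changes in KO females were gains. Rows of one direction at least that long numbered 20 in this comparison over the whole table. Of the female list, 15.6% on chromosome 4 were differences of at least 25 points, against 31.7% on the other chromosomes.

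**Figure D3:**
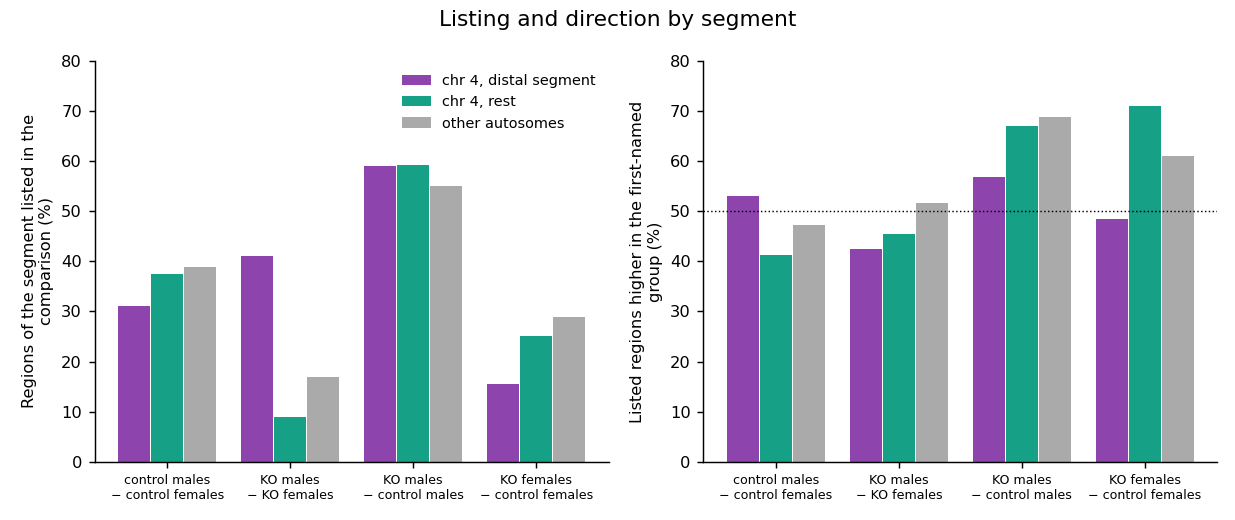
The left panel gives the percentage of the members of each segment that were listed in each of the 4 comparisons, and the right panel the percentage of listed regions that were higher in the first-named group (dotted line, equal numbers), for the distal segment (212 regions), the rest of chromosome 4 (123) and the other autosomes (3550). The distal segment stands at 41.0% for KO males against KO females, where the rest of chromosome 4 stands at 8.94%.

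The KO changes of males and females, measured in separate animals, agreed in direction in the remainder of the chromosome and mostly differed in the distal segment. On chromosome 4, 27 regions were listed in both KO comparisons, or 13.6% of the regions listed for males and 42.2% of those listed for females (9.91% of all listed regions were called in both). The signs were the same at 16 of the 27, and 7.9% of all listed regions were called in both with the same sign. In the remainder 13 of 15 changed in the same direction, 11 of them upward. In the distal segment 3 of 12 did, and 9 had opposite signs. On the other chromosomes together the signs were the same at 291 of 358 regions (81.3%). Opposite signs were not found on chromosome 4 alone: chromosomes 11 and 18 had 13 such regions each and chromosome 6 had 11, as many as chromosome 4. The regions with the largest shared gains were 65209801 to 65209901 (24.03 points in males and 25.53 in females), 25359201 to 25359301 (33.22 and 21.17) and 45742701 to 45742801 (34.26 and 21.07) in the authors' deposited table. The 3 shared losses were at 146838201 to 146838301 (-33.54 points in males and -24.23 in females), 43711101 to 43711201 (-19.46 and -28.3) and 44042901 to 44043001 (-15.34 and -33.88) in the authors' deposited table.

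The 11 regions with opposite KO changes ran from 86072401 to 149571801, 9 of them in the distal segment (2.01% of all listed regions were opposite). At 6 of them the gain was in males and the loss in females, and at 5 the other way round. At 129799801 to 129799901 the authors' deposited table gives 32.06 points in males and -26.14 in females. The values were -25.06 and 23.75 points at 125525501 to 125525601, 24.86 and -19.53 at 131335001 to 131335101, and 16.72 and -19.46 at 131669601 to 131669701 in the authors' deposited table. Regions of both patterns were interspersed along the chromosome. Farther on, the changes in males and females were -18.38 and 20.6 points at 139197101 to 139197201, -18.61 and 22.66 at 141198601 to 141198701, 17.63 and -23.1 at 148919901 to 148920001, and -17.18 and 16.16 at 149571701 to 149571801 in the authors' deposited table. The other 3 were 22.97 and -23.13 points at 122603101 to 122603201, 18.18 and -20.79 at 106122701 to 106122801, and -19.27 and 33.53 at 86072401 to 86072501 in the authors' deposited table. Whether the KO change differed between the sexes at any of these regions was not tested, since values per animal were not analysed here.

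**Figure D4:**
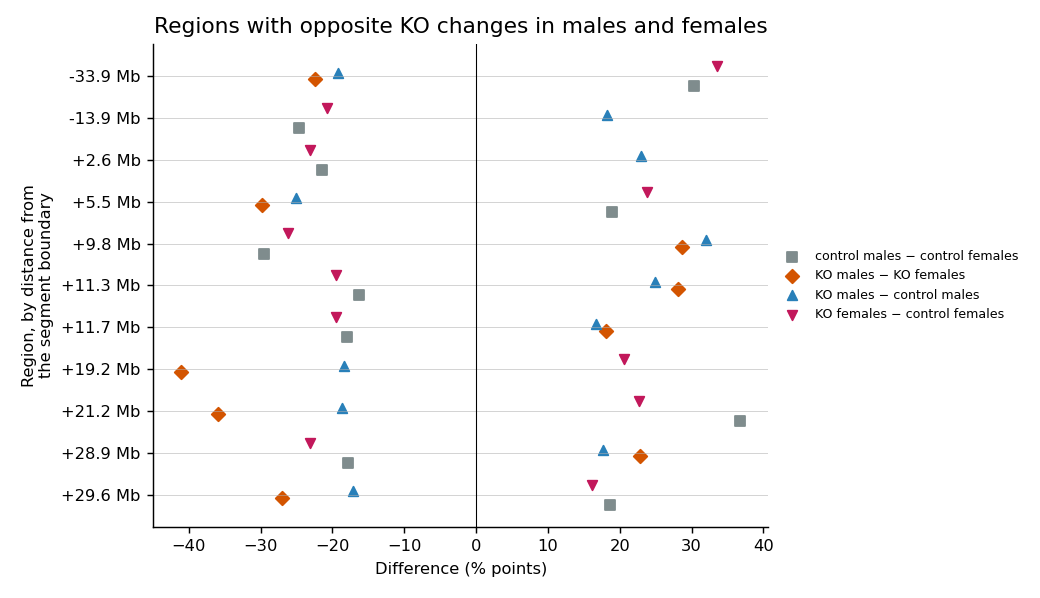
Each row is one of the 11 chromosome 4 regions with opposite KO changes, labelled by its distance from the segment boundary in Mb, and each symbol is one of the listed differences in percentage points on the horizontal axis. Blue and pink triangles, the KO changes of males and females, lie on opposite sides of 0 in every row.

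At 8 of these 11 regions all 4 comparisons were listed, and the order of the groups reversed with the genotype. These were all of the chromosome 4 regions listed in all 4 comparisons (1.83% of all listed regions were). At 4 of them control females and KO males had more methylation than control males and KO females, and at the other 4 control males and KO females had more. For example, at 129799801 to 129799901 the sex difference was -29.52 points in controls and 28.69 points in KO mice in the authors' deposited table. On the other chromosomes 46 of the 63 regions listed in all 4 comparisons had such a reversal. Opposite KO changes beyond the listing threshold make opposite sex differences likely by arithmetic, so the reversal adds nothing independent to the opposite KO changes.

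Across all regions listed for both sex comparisons, which share no animals, 12 of 15 on chromosome 4 had opposite signs in control and KO liver, 11 of them among the 14 distal ones. Of all listed regions 4.71% were called in both sex comparisons, 2.47% with opposite signs and 2.24% with the same sign. On the other chromosomes 84 of 168 had opposite signs. The 12 on chromosome 4 include the 8 regions listed in all 4 comparisons, so they are largely not a separate result. The 84 likewise include the 46 reversals given above. The sex difference had the same sign in both genotypes at 153446901 to 153447001 (15.53 points without and 26.27 with the KO), 155029101 to 155029201 (21.11 and 20.84) and 138494501 to 138494601 (-16.14 and -15.94) in the authors' deposited table. All 3 were distal, and none was listed for a KO change. Of the control sex differences 97 of 112 (86.6%) were absent from the KO list, near the 87.7% of the whole table, and of the KO sex differences 83 of 98 (84.7%) were absent from the control list, against 73.8% in the whole table.

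**Figure D5:**
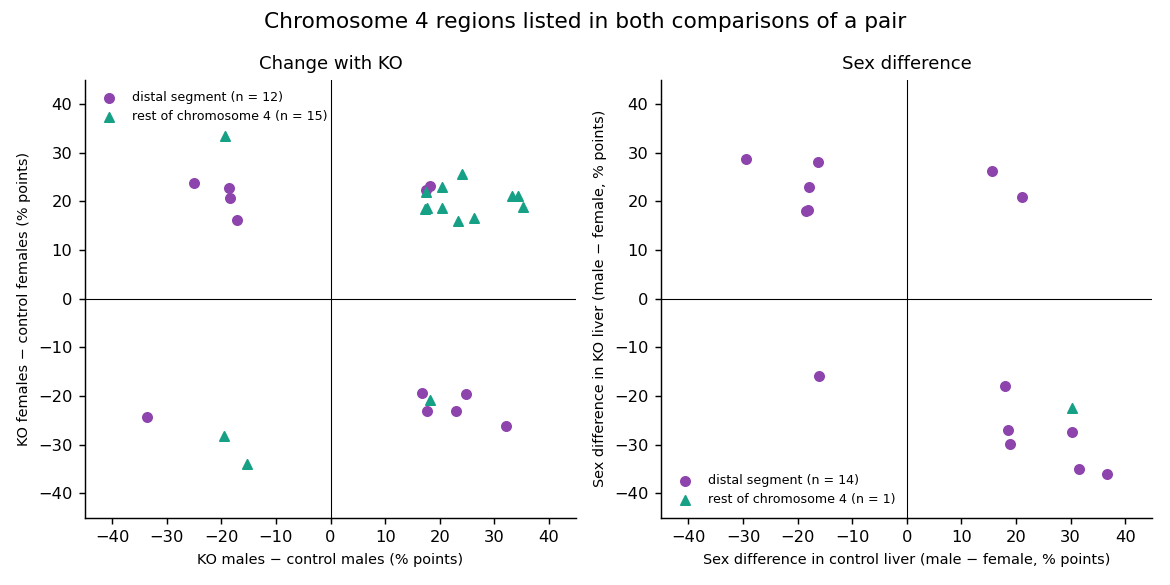
Each point is a chromosome 4 region listed in both comparisons of a pair, with the KO change in males against that in females (left, percentage points) and the sex difference in control against that in KO liver (right). On the left 13 of the 15 regions outside the distal segment (triangles) have equal signs and 9 of the 12 distal regions (circles) do not; the empty cross at the centre is the listing threshold of 15 points.

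With gaps of up to 10 kb allowed, 30.4% of the members lay in groups of at least 2 (31.2% on the other chromosomes), and 8 groups held at least 3. The longest held 5 regions between 140798901 and 140815401. In it the control males were above the control females at 4 regions by 15.96 to 19.61 points, and the 3 listed KO changes in males were -17.58, -20.69 and -20.12 points in the authors' deposited table. The 27 pairs of touching members gave 29 cases in which a comparison was listed on both sides, and 0 of them had opposite signs, against 8 of 449 on the other chromosomes, which is near the general rate. At larger distances signs could differ: in the group at 137444301 to 137455101, KO males were below control males at 137448301 to 137448401 (-22.66 points) and above them at 137455001 to 137455101 (17.5 points) in the authors' deposited table.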

How the data were processed

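RRBS was carried out on 23 livers. The submitters' processing notes name mm9, Trim Galore 0.4.3, Bismark and methylKit. The role and settings of each tool, the coverage minimum and the handling of replicates were not given in the sources used here. The authors deposited, per the file legend, signed differences in percent methylation for 100 bp regions past 15 points and a q-value under 0.05. Chromosome 4 regions were counted and ranked with Python 3.11.15 and pandas 2.3.3, and the merging and run counting were tested on simulated data. No test was run: the members, the boundary, the Mup window and the naming rule were chosen with earlier results of these data known. The rule named the 5 largest differences per direction and comparison, regions listed in all 4 comparisons or with opposite KO changes, the largest shared KO changes, groups of neighbours, regions around the Mup window, the fullest bins and the smallest sizes; some are given as ranges. Depth per sample is unknown, so no precision can be given. Alternatives were a threshold of 25 points, merging within 10 kb, and other boundaries and windows.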

Additional observations from a re-analysis of the deposited data

How the results depend on the processing

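Of 67 recomputed shares and counts, 64 stayed within the exact 95% binomial interval of the reported share or within 1.5 times the reported count, and 3 did not. Those intervals treat regions as independent and are wide for short lists. Most alternatives reuse the same regions, so staying within the interval was likely beforehand and is no test of robustness. A share that crossed equal numbers could still count as staying. The distal KO sex share did so, at 53.4% against 42.5%, with an interval of 32.0% to 53.6%. With at least 25 points required in both KO comparisons, 1 region with opposite signs and 0 with the same sign were left on chromosome 4, against 11 and 16. A window of 57 to 64 Mb held 13 listed regions, against 0 at 59 to 62 Mb. The cause was not tested; the stricter threshold and the wider window change the counts by construction. The share of distal KO sex differences higher in males ranged from 41.2% to 53.4%, and that of gains in KO females in the distal segment from 44.8% to 60%, the latter from 5 regions of at least 25 points, so both lay on either side of equal numbers. Gains of KO males made up 54.3% to 60.4% of the distal list and 63.9% to 67.7% of the remainder. No KO sex difference before 120 Mb reached 25 points, so no share was computed there. Leaving out animals in turn was not run, and no paired analysis was possible because the table holds group differences without values per animal.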

Other observations

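Where a region is listed in all 4 comparisons, 3 of the values fix the fourth, provided that the same group levels were used in all columns. Among the 8 such regions of chromosome 4, 6 met this within 0.05 points, and on the other chromosomes 38 of 63 did. At 141198601 to 141198701 the values were off by 31.39 points and at 149571701 to 149571801 by 12.27 points, so a single level per group cannot give all 4 columns at those 2 regions. Both are among the 4 reversals in which control males and KO females had more methylation.

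Touching regions with the same 4 values occurred 3 times on chromosome 4 and 11 times in the whole table. The values were -16.19 and -18.76 points for the control sex difference and the female KO change at 86576601 to 86576701 and the region touching it, and 18.21 points for the KO sex difference at 134424001 to 134424101 and the region touching it, in the authors' deposited table; the third is the pair at 140203101 to 140203301 given above.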
